A study of Homo sapiens with 12 samples.

Results

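MHC class I molecules display peptides from inside the cell to CD8+ T cells and NK cells. Proteasomes cut proteins into peptides, the TAP transporter carries them into the endoplasmic reticulum, and chaperones load them onto a heavy chain paired with beta-2 microglobulin. NLRC5 is the transactivator that drives transcription of these genes, and lymphoid cells are known for high class I levels. The 8 genes described here were given by name and span these steps: the heavy chains HLA-B, HLA-C and HLA-E, the light chain B2M, the transporter subunits TAP1 and TAP2, tapasin (TAPBP) and NLRC5. They were found by Ensembl identifier among 58288 genes, each listed 1 time, and all 8 were among the 24247 genes with a mean RPKM (reads per kilobase of exon, scaled to the total count of the library) of at least 1 in at least 1 line.

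RNA-seq was performed on HPB-ALL and KOPTK1, human cell lines of T-cell acute lymphoblastic leukemia (T-ALL). Cells of each line received pLKO.1 lentivirus carrying shRNA against SHQ1, an assembly factor of H/ACA ribonucleoproteins, or against GFP as control, with puromycin at 2 μg/mL for 48 h. The labels give 3 samples for each of the 4 combinations of line and shRNA, and do not say whether they were separate cultures. The 6 columns of each line's table carry bare numbers, so a library could be tied to its line but not to its shRNA. The effect of SHQ1 knockdown on the class I genes was therefore not analysed here, and libraries are named by line and number. Total counts ran from 36792076 to 42842791 in HPB-ALL, from 33905452 to 36098045 in KOPTK1 libraries 1 to 3 and from 22884785 to 25938761 in KOPTK1 libraries 4 to 6.

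SHQ1, the target of the knockdown, varied within both lines. In HPB-ALL it stood at 70.3, 71.8 and 70.9 RPKM in libraries 7, 8 and 9 and at 47.6, 46.4 and 49.1 RPKM in libraries 10, 11 and 12. In KOPTK1 it stood at 45.7, 44.1 and 46.4 RPKM in libraries 1, 2 and 3 and at 41.9, 41.8 and 39.3 RPKM in libraries 4, 5 and 6. Libraries 7 to 9 were the high ones in HPB-ALL, the KOPTK1 libraries lay closer together, and the ranges of the lines met at their edge. The log2 difference, HPB-ALL minus KOPTK1, was 0.45 (SE 0.12, adjusted p = 0.0043), 0.13 without libraries 7, 8 and 9 (adjusted p = 0.055) and 0.73 without libraries 10, 11 and 12, and over all alternatives its adjusted p ran from 5.8e-06 to 0.055. No shRNA was assigned from these values.

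Libraries of KOPTK1 stood apart from each other across the transcriptome. The chi-square per degree of freedom between 2 libraries was 20.8 to 24.8 for pairs that joined 1 of libraries 1 to 3 with 1 of libraries 4 to 6, and 1.76 to 4.86 for the other pairs. In HPB-ALL the corresponding values were 4.13 to 6.13 and 2.10 to 3.88. Genes that marked 1 line were then followed in every library. The limits that follow were chosen after seeing the data, once a stricter limit had given no gene high in HPB-ALL, and on the same libraries, so the values are a description with no test. For 322 autosomal genes with a mean of at least 5 RPKM in HPB-ALL and at most 25% of that in the lowest KOPTK1 library, the median level was 54.8%, 54.1% and 54.4% of the HPB-ALL mean in KOPTK1 libraries 1, 2 and 3. It was 16.7%, 16.7% and 15.7% in libraries 4, 5 and 6. For 155 genes with at least 5 RPKM in the highest KOPTK1 library and at most 5% of that in HPB-ALL as a line, the median was 53.9%, 53.4% and 54.8% of that highest level in KOPTK1 libraries 1, 2 and 3, and 95.5%, 97.6% and 94.0% in libraries 4, 5 and 6. The 5% limit did not hold in each HPB-ALL library, with a 90th percentile of 5.34%, 5.65% and 5.65% in libraries 10, 11 and 12. The same genes stood at 2.88%, 2.82% and 2.94% in HPB-ALL libraries 10, 11 and 12, and at 0.52%, 0.43% and 0.44% in libraries 7, 8 and 9. Since the genes were picked by the lowest KOPTK1 library or scaled to the highest, the choice itself favours a spread among KOPTK1 libraries, and nothing is concluded from these percentages. Over the 322 genes, the 10th and 90th percentiles were 43.6% and 67.0% in library 1, 41.9% and 65.2% in library 2 and 31.8% and 66.5% in library 3. The first principal component of the 12 libraries held 78.4% of the variance. On it, KOPTK1 libraries 1, 2 and 3 stood at 38.5, 38.8 and 37.9, between libraries 4 to 6 (96.0 to 96.9) and HPB-ALL (-77.7 to -57.6). The part of RNA from both lines within 1 library, and its effect on levels pooled over KOPTK1, was not tested. The differences of the class I genes between the lines are therefore given with and without KOPTK1 libraries 1 to 3 or 4 to 6.

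Lineage markers were compared with the label of T-ALL. T-lineage genes ranged widely in level, with CD3D, a chain of the T-cell receptor complex and the most abundant of them, at a median of 295.0 RPKM in HPB-ALL and 300.6 RPKM in KOPTK1. Of 14 T-lineage genes, 13 were tested, 4 were higher and 6 lower in HPB-ALL, and the summed level was 996 to 1036 RPKM in HPB-ALL libraries and 1021 to 1087 RPKM in KOPTK1 libraries. CD4 stayed at or under 1.11 RPKM in both lines and was not tested. CD8A was lower in HPB-ALL, from 0.80 to 1.03 RPKM against 4.05 to 6.78 RPKM in KOPTK1 (adjusted p = 2.3e-08). CD2 was also lower, by a log2 difference of -1.82 (adjusted p = 8.4e-08), as was RAG1, by -2.18 (adjusted p = 1.8e-09). The T-lineage genes higher in HPB-ALL were LCK, by 0.26 (adjusted p = 9.9e-05), CD3G, by 0.19 (adjusted p = 0.00030), CD1A, by 0.39 (adjusted p = 0.0012), and CD7, by 0.24 (adjusted p = 0.0054). The summed levels of the myeloid (LYZ, CD14, CSF1R, MPO), NK, erythroid and epithelial lists stayed at or under 1.62 RPKM in every library, and none of their genes was tested. Among B-lineage genes MS4A1 stayed at or under 0.088 RPKM, but CD79A, a B-cell receptor chain, ran from 40.3 to 45.9 RPKM in HPB-ALL and from 5.87 to 24.6 RPKM in KOPTK1. Of the 4 B-lineage genes, 2 were tested, 1 was higher and 1 lower in HPB-ALL, and their summed level was 41.5 to 46.6 RPKM in HPB-ALL and 7.42 to 26.0 RPKM in KOPTK1. Of 8 T-ALL transcription factor genes, 3 were tested, LMO1 and TAL1 were higher and LMO2 lower in HPB-ALL, and the summed level was 43.0 to 49.3 RPKM in HPB-ALL and 14.5 to 29.6 RPKM in KOPTK1. LMO2 ran from 0.079 to 0.26 RPKM in HPB-ALL and from 0.97 to 2.49 RPKM in KOPTK1. TLX1, TLX3, HOXA9, NKX2-1 and LYL1 were not tested, with a highest value of 0.61 RPKM (LYL1 in HPB-ALL). TLX3 reached 0.036 RPKM in HPB-ALL and 0.30 RPKM in KOPTK1. Whether these levels match earlier descriptions of the lines was not tested. TAL1, a T-ALL oncogene, stood at 39.5 to 45.1 RPKM in HPB-ALL, at 26.5, 23.6 and 26.1 RPKM in KOPTK1 libraries 1, 2 and 3 and at 12.5, 12.8 and 12.5 RPKM in libraries 4, 5 and 6. The part of these marker differences in the class I results was not tested.

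The class I genes were expressed in both lines and differed most between them in HLA-E, TAPBP and TAP2. All 8 passed the test between the lines (edgeR's quasi-likelihood test, 6 libraries against 6, Benjamini-Hochberg adjustment over 24247 genes, adjusted p under 0.05), while 65.5% of all genes tested did so. Of the 8, 7 were lower in HPB-ALL (34.1% of all genes) and 1, HLA-C, was higher (31.3% of all genes). With a change of at least 2-fold also required, 1 member remained, HLA-E, against 13.0% of all genes in either direction and 8.40% lower in HPB-ALL. The ranges of the libraries did not overlap for 5 members, against 45.6% of all genes. The median difference of the members was -0.19 on the log2 scale, beside -0.033 over all genes tested, and the median size was 0.19 beside 0.33. Apart from HLA-E, TAPBP and TAP2, the members differed by less than the median size over all genes. In bulk RNA, more transcript per cell and more cells that express it cannot be told apart. The p-values measure the spread among libraries of a line, which here includes both shRNA groups, and line and table cannot be told apart.

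**Figure D1:**
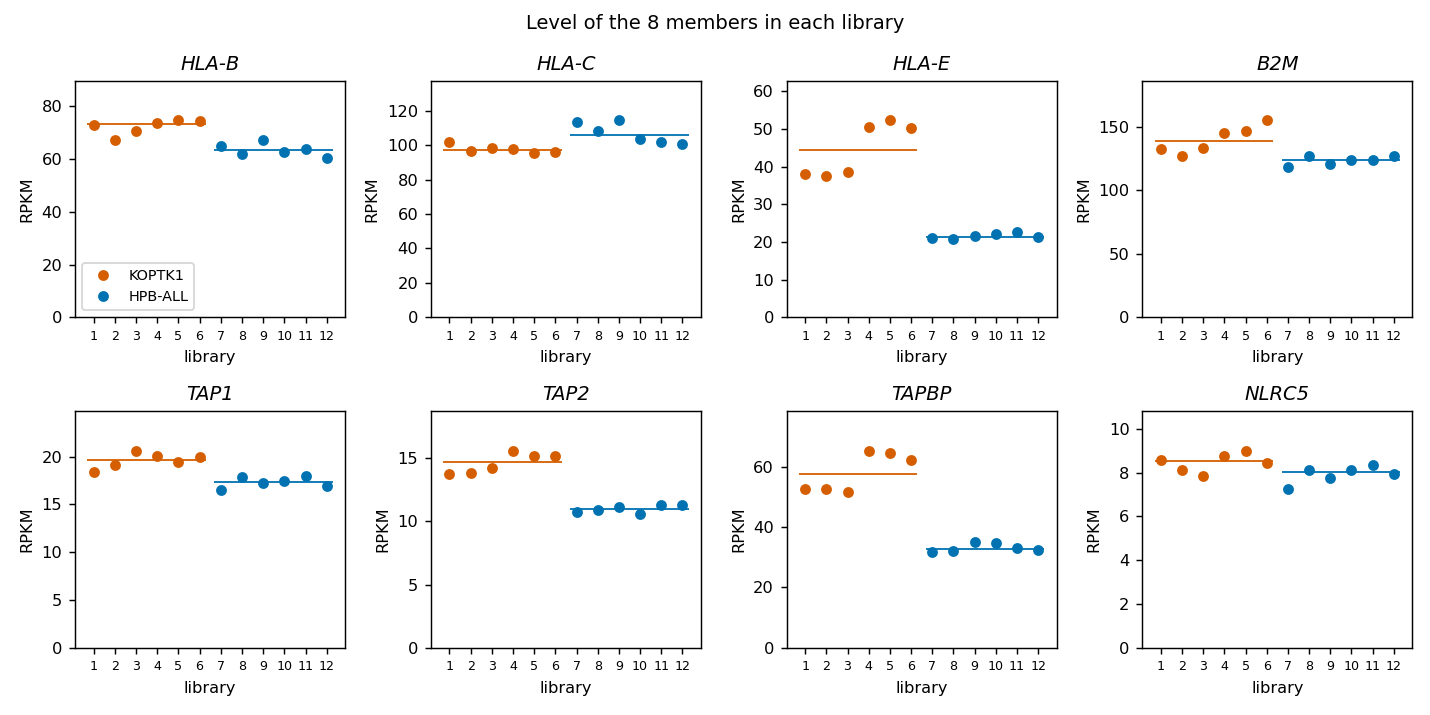
Level (RPKM) of the 8 class I genes in KOPTK1 libraries 1 to 6 and HPB-ALL libraries 7 to 12; lines mark the median of each cell line. HLA-E, TAPBP and TAP2 are lower in every HPB-ALL library than in every KOPTK1 library, while HLA-C, B2M and NLRC5 overlap.

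The levels spanned a similar order in both lines. In HPB-ALL, B2M had the highest median, 124.0 RPKM, followed by HLA-C at 105.8, HLA-B at 63.3, TAPBP at 32.7, HLA-E at 21.4, TAP1 at 17.3, TAP2 at 11.02 and NLRC5 at 8.03 RPKM, and no neighbours in that order overlapped across libraries. KOPTK1 had the same order, with TAPBP and HLA-E overlapping and no other neighbours doing so. Of all genes tested, 298 had a higher median than B2M in HPB-ALL and 256 in KOPTK1, so the light chain was among the abundant transcripts of both lines.

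The classical heavy chains HLA-B and HLA-C, which present peptides to CD8+ T cells, differed in opposite directions by small amounts. HLA-B (ENSG00000234745, GRCh38 chromosome 6, 31269491 to 31357187) ran from 60.2 to 67.1 RPKM in HPB-ALL (median 63.3) and from 67.3 to 74.5 RPKM in KOPTK1 (median 73.1). It was lower in HPB-ALL by a log2 difference of -0.19 (SE 0.035, adjusted p = 0.00027), and all 6 HPB-ALL libraries lay under all 6 of KOPTK1. The difference was -0.19 without KOPTK1 libraries 1, 2 and 3 and -0.15 without libraries 4, 5 and 6. HLA-C (ENSG00000204525, chromosome 6, 31268749 to 31272086) ran from 100.5 to 114.2 RPKM in HPB-ALL (median 105.8) and from 95.1 to 101.7 RPKM in KOPTK1 (median 97.4). Its log2 difference was 0.12 (SE 0.039, adjusted p = 0.013), and the ranges overlapped. The 3 highest HPB-ALL values were 113.1, 108.2 and 114.2 RPKM, in libraries 7, 8 and 9. Without these libraries the difference was 0.054 (adjusted p = 0.18), without KOPTK1 libraries 4, 5 and 6 it was 0.11 (adjusted p = 0.051). It was 0.21 without HPB-ALL libraries 10, 11 and 12 (adjusted p = 0.00088) and 0.18 without KOPTK1 libraries 1, 2 and 3 (adjusted p = 0.0013), and its adjusted p over all alternatives ran from 0.00088 to 0.18.

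The ratio of HLA-B to HLA-C within a library was 0.57 to 0.63 in HPB-ALL. It was 0.71, 0.70 and 0.72 in KOPTK1 libraries 1, 2 and 3 and 0.75, 0.78 and 0.77 in libraries 4, 5 and 6, each above every HPB-ALL library. The exon annotation of HLA-B reached into HLA-C, with 33 shared bases, and 372 exon bases of HLA-B lay under an antisense gene (ENSG00000271581) at 17.0 RPKM in HPB-ALL and 15.9 RPKM in KOPTK1. Counts of HLA-B and HLA-C were fractional in 11 of 12 libraries each and those of HLA-E in 10. How the fractions arose was not tested, and the levels of these genes, which resemble each other in sequence, are uncertain to that extent. The submitters' notes name hg38 as reference, and the part of sequence differences between the lines in these levels was not tested.

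HLA-E, a heavy chain that presents leader peptides of other class I molecules to NK cell receptors, showed the largest difference among the members. HLA-E (ENSG00000204592, chromosome 6, 30489467 to 30494205) ran from 20.8 to 22.7 RPKM in HPB-ALL (median 21.4) and from 37.6 to 52.3 RPKM in KOPTK1 (median 44.4). The KOPTK1 values were 38.1, 37.6 and 38.5 RPKM in libraries 1, 2 and 3 and 50.6, 52.3 and 50.4 RPKM in libraries 4, 5 and 6, all above every HPB-ALL library. The log2 difference was -1.05 (SE 0.084, adjusted p = 2.3e-07), a level 2.08-fold higher in KOPTK1. It was -1.22 without KOPTK1 libraries 1, 2 and 3 and -0.83 without libraries 4, 5 and 6, where it no longer reached 2-fold. HLA-E stood at 0.32 to 0.36 of the HLA-B level in HPB-ALL libraries, at 0.52, 0.56 and 0.55 in KOPTK1 libraries 1, 2 and 3 and at 0.69, 0.70 and 0.68 in libraries 4, 5 and 6, so the proportions among heavy chains differed between the lines.

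B2M (ENSG00000166710, chromosome 15, 44711477 to 44718877), the light chain shared by all class I heavy chains, ran from 118.9 to 127.5 RPKM in HPB-ALL and from 126.9 to 155.2 RPKM in KOPTK1. The ranges met at their edge, and KOPTK1 library 2 lay within the HPB-ALL range. Its log2 difference was -0.19 (SE 0.043, adjusted p = 0.0018), -0.24 without KOPTK1 libraries 1, 2 and 3 and -0.088 without libraries 4, 5 and 6 (adjusted p = 0.014, beside 5.1e-07 to 0.045 over all alternatives). Relative to the sum of HLA-B, HLA-C and HLA-E, B2M stood at 0.60 to 0.70 in HPB-ALL and at 0.62 to 0.70 in KOPTK1, 2 overlapping ranges. In KOPTK1 it was 0.62, 0.63 and 0.64 in libraries 1, 2 and 3 and 0.66, 0.66 and 0.70 in libraries 4, 5 and 6.

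**Figure D2:**
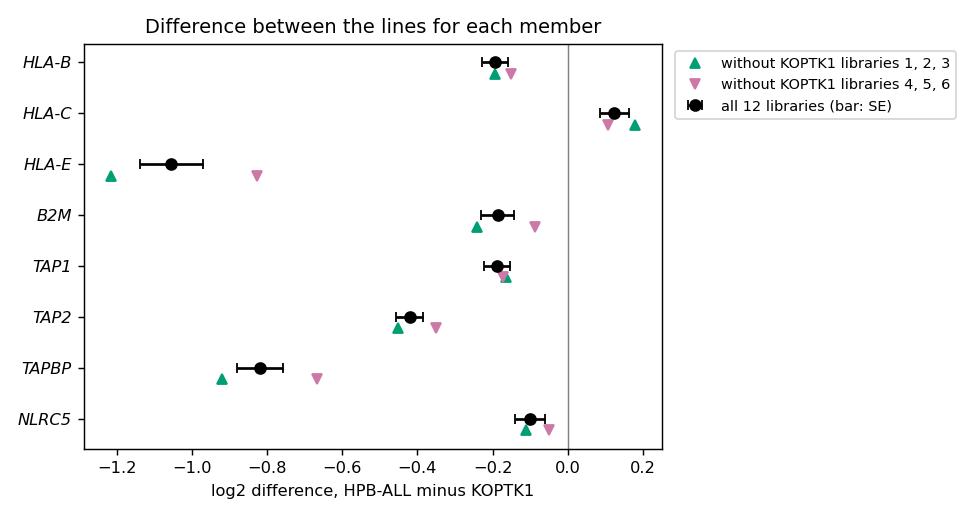
Log2 difference between the lines (HPB-ALL minus KOPTK1) for each class I gene from all 12 libraries, with bars for its SE, and without KOPTK1 libraries 1 to 3 or 4 to 6. HLA-E and TAPBP lie farthest from 0, and every gene keeps its side of 0 in the 3 fits shown.

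TAPBP, TAP1 and TAP2 were lower in HPB-ALL to unequal degrees. TAPBP (ENSG00000231925, chromosome 6, 33299694 to 33314387), which bridges the transporter and empty class I molecules, ran from 31.8 to 34.9 RPKM in HPB-ALL (median 32.7). In KOPTK1 it stood at 52.6, 52.7 and 51.7 RPKM in libraries 1, 2 and 3 and at 65.3, 64.4 and 62.3 RPKM in libraries 4, 5 and 6. Every KOPTK1 library was above every HPB-ALL library, with a log2 difference of -0.82 (SE 0.061, adjusted p = 1.3e-07). The difference was -0.92 without KOPTK1 libraries 1, 2 and 3 and -0.67 without libraries 4, 5 and 6.

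TAP1 and TAP2 form the 2 chains of the peptide transporter. TAP2 (ENSG00000204267, chromosome 6, 32821833 to 32838780) ran from 10.6 to 11.3 RPKM in HPB-ALL and from 13.8 to 15.6 RPKM in KOPTK1, without overlap, for a log2 difference of -0.42 (SE 0.036, adjusted p = 3.9e-07). It was -0.45 without KOPTK1 libraries 1, 2 and 3 and -0.35 without libraries 4, 5 and 6. TAP1 (ENSG00000168394, chromosome 6, 32845209 to 32853978) ran from 16.5 to 17.9 RPKM in HPB-ALL and from 18.4 to 20.6 RPKM in KOPTK1, also without overlap, for a log2 difference of -0.19 (SE 0.035, adjusted p = 0.00032). It was -0.16 without KOPTK1 libraries 1, 2 and 3 and -0.17 without libraries 4, 5 and 6. The ratio of TAP1 to TAP2 was 1.49 to 1.65 in HPB-ALL libraries, 1.34, 1.38 and 1.45 in KOPTK1 libraries 1, 2 and 3 and 1.28, 1.28 and 1.31 in libraries 4, 5 and 6, so the 2 chains did not differ in step. TAP2 shared 2064 exon bases, 33.4% of its exons, with a gene on the same strand (ENSG00000250264), and its counts were fractional in all 12 libraries. TAP1 shared 456 exon bases with the antisense gene PSMB8-AS1, and use of strand in the counting is not given in the sources used here.

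NLRC5 (ENSG00000140853, chromosome 16, 56989498 to 57083524), the transactivator, was the least abundant member and, over all 12 libraries, differed least. It ran from 7.26 to 8.37 RPKM in HPB-ALL (median 8.03) and from 7.86 to 9.004 RPKM in KOPTK1 (median 8.52), and the ranges overlapped. The log2 difference of -0.10 (SE 0.040, adjusted p = 0.039) missed the threshold in 19 of 24 alternatives, 8 of them with 1 library left out (HPB-ALL 7, 8, 9 or 12 or KOPTK1 1, 4, 5 or 6). With 1 library left out the difference ran from -0.11 to -0.070, and it was -0.11 without KOPTK1 libraries 1, 2 and 3, -0.051 without libraries 4, 5 and 6 and -0.063 without HPB-ALL libraries 7, 8 and 9. Over all alternatives its adjusted p ran from 0.026 to 0.62, so the call of NLRC5 depended on the setting and on single libraries.

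Variation within a line differed among the class I genes. In HPB-ALL the highest library was 1.07 to 1.15 times the lowest for the 8 members, beside a median of 1.13 over 12779 genes with a mean of at least 5 RPKM, and HLA-C and NLRC5 lay above that median. In KOPTK1 the ratio ran from 1.07 for HLA-C to 1.39 for HLA-E, beside a median of 1.24 over 13310 genes. HLA-E and TAPBP (1.26) were the members above the KOPTK1 median, with 28.8% and 46.5% of genes varying more, and both were higher in libraries 4 to 6.

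Promoters of class I genes hold an upstream module bound by NLRC5 together with RFX, CREB/ATF and NF-Y factors, and sites for interferon regulatory factors and NF-kappaB. RefSeq promoter entries (GRCh38.p14, 250 bases before the start) matched 6 members: HLA-B, HLA-C, B2M, TAP1, TAP2 and TAPBP. HLA-E and NLRC5 had no entry. These motifs were searched on both strands over the 250 bases: ATTGG (Y box), TGACG (core of the cyclic AMP response element), TTTCNNTTT (core of the interferon-stimulated response element) and the NF-kappaB consensus. Of 35116 promoters, 32.0%, 21.2%, 9.20% and 5.21% held them. The sequences of HLA-B and HLA-C are shown because these neighbours differed in opposite directions, and those of B2M and TAP2 because they share the direction of most members. Capitals mark matches. Up to 200 bases before the start are printed, less those inside exons of the tables, a limit set after the overlap was seen.
HLA-B (chr6:31357188-31357379, minus strand): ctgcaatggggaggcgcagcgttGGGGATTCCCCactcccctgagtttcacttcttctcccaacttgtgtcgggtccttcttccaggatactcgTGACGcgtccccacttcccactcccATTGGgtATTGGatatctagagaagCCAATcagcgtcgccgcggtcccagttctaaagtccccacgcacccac
HLA-C (chr6:31272093-31272292, minus strand): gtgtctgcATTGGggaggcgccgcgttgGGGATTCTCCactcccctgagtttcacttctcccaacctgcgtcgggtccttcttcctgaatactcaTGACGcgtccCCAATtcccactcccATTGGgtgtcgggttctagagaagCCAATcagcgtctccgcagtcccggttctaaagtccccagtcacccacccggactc
B2M (chr15:44711317-44711476, plus strand): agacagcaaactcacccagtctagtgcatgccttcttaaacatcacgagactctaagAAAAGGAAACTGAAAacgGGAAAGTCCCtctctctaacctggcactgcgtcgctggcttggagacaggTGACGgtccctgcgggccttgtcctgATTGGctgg
TAP2 (chr6:32838781-32838939, minus strand): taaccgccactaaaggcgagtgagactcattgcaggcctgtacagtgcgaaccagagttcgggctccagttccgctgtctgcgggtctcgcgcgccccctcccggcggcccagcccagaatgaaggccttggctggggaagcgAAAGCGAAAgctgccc
HLA-B held 3 matches to ATTGG, 1 to TGACG and 2 overlapping NF-kappaB matches, and HLA-C held 4, 1 and 1. B2M held 1 ATTGG, 1 TGACG, 2 overlapping TTTCNNTTT and 1 NF-kappaB match. TAP2 held 1 TTTCNNTTT match and 1 TGACG match, the latter nearer the start than the bases printed. In TAP1 and TAPBP, whose 200 bases before the start lay inside exons of the tables and are not printed, there were 2 overlapping TTTCNNTTT matches and 1 NF-kappaB match each, and TAP1 also held 1 ATTGG. An exact match to TTTCNNTTT was thus found in 4 of 6 windows, those of B2M, TAP1, TAP2 and TAPBP. The printed HLA-B and HLA-C sequences hold tttcacttc, which differs from this string only in its last base. The lack of an exact match there therefore does not show that the element is absent.

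Genes that supply peptides went both ways. For the called genes named from this and the following lists, all 6 libraries of 1 line lay above all 6 of the other, except for MICA, TYK2, IFI6 and EED. Over all genes tested, the ranges did not overlap for 45.6%. Most of the named genes were picked for a high level or a large difference, and a large difference favours separate ranges. Some called genes of these lists that are not named had overlapping ranges. Of 10 proteasome and aminopeptidase genes, 5 were higher in HPB-ALL, 3 were lower and 2 did not pass, with a median log2 difference of 0.16. Beside this list, the marker lists above and the lists that follow, 31.3% of all genes tested were higher in HPB-ALL and 34.1% lower. The constitutive proteasome subunits PSMB7, PSMB5 and PSMB6 were higher, by log2 differences of 0.54 (adjusted p = 2.6e-06), 0.69 (adjusted p = 7.6e-05) and 0.54 (adjusted p = 2.0e-05). The difference of PSMB5 was 0.46 without KOPTK1 libraries 4, 5 and 6. PSMB8 was higher by 0.38 (adjusted p = 1.1e-05). PSME1, a proteasome activator subunit, was lower by -0.19 (adjusted p = 9.4e-05). The aminopeptidase genes ERAP2 and ERAP1 were lower by more, -0.50 (adjusted p = 4.7e-06) and -0.33 (adjusted p = 1.6e-07). PSMB9, an immunoproteasome subunit, was higher by 0.29 (adjusted p = 0.00055), opposite to TAP1. Its start in the RefSeq promoter entries lies 488 bases from the RefSeq start used for TAP1, on the other strand.

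Of 4 other genes for chaperones that load class I molecules, 3 were higher in HPB-ALL (31.3% of all genes) and 1 was lower (34.1% of all genes). Their median was 0.29. CALR ran from 559 to 618 RPKM in HPB-ALL and from 418 to 488 RPKM in KOPTK1, a log2 difference of 0.36 (adjusted p = 3.1e-05). CANX differed by 0.36 (adjusted p = 4.3e-05). The gene lower in HPB-ALL was TAPBPL, a relative of tapasin, at -0.48 (adjusted p = 2.1e-05), the largest difference of the 4.

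Of 5 other class I and class I-like genes, 4 were tested, 3 were higher in HPB-ALL and none was lower, with a median of 0.27, or 0.47 without KOPTK1 libraries 1, 2 and 3 and 0.17 without libraries 4, 5 and 6. These were the stress ligands MICB at 0.29 (adjusted p = 0.0015) and MICA at 0.20 (adjusted p = 0.013) and the MAIT cell ligand MR1 at 0.37 (adjusted p = 5.0e-05). The count higher was 4 without KOPTK1 libraries 1, 2 and 3. The difference of MICB was 0.47 without KOPTK1 libraries 1, 2 and 3 and 0.16 without libraries 4, 5 and 6. MICA did not pass without HPB-ALL libraries 10, 11 and 12 (adjusted p = 0.14, beside 0.0014 to 0.14 over all alternatives). MHC class II genes were near 0: of 8, only HLA-DMA was tested, at a median of 2.42 RPKM in HPB-ALL and 2.22 RPKM in KOPTK1 (adjusted p = 0.19), and CD74 stayed at or under 1.04 RPKM.

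Factors known to act on class I promoters were mixed. Of 12, 3 were higher in HPB-ALL, 4 were lower and 5 did not pass, with a median of 0.015. The median was 0.061 without KOPTK1 libraries 1, 2 and 3, -0.026 without libraries 4, 5 and 6 and -0.020 without HPB-ALL libraries 7, 8 and 9, so its sign depended on the libraries used. IRF1 was lower by -0.58 (adjusted p = 8.8e-07) and IRF2 by -0.70 (adjusted p = 1.3e-07), each without overlap between lines. NFKB1 was higher by 0.93 (adjusted p = 0.00024), from 12.5 to 14.7 RPKM in HPB-ALL against 4.92 to 9.76 RPKM in KOPTK1, and its difference was 1.46 without KOPTK1 libraries 1, 2 and 3 and 0.58 without libraries 4, 5 and 6. NFYA was higher by 0.12 (adjusted p = 0.0043), and by 0.19 without KOPTK1 libraries 1, 2 and 3. Without KOPTK1 libraries 1, 2 and 3 the count higher in HPB-ALL was 6.

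Interferon signalling genes, 11 in all, gave 2 higher and 5 lower in HPB-ALL, with a median of -0.026, which was 0.00011 without KOPTK1 libraries 1, 2 and 3. SOCS1, an inhibitor of cytokine signalling, was lower by -1.69 (adjusted p = 1.8e-06) and IRF9, a part of the ISGF3 complex, by -0.70 (adjusted p = 6.6e-05), or -0.44 without KOPTK1 libraries 4, 5 and 6. JAK1 was higher by 0.28 (adjusted p = 0.00066), by 0.44 without KOPTK1 libraries 1, 2 and 3 and by 0.17 without libraries 4, 5 and 6. TYK2, at -0.10 (adjusted p = 0.027), missed the threshold in 16 of 25 alternatives, among them those without HPB-ALL library 7, 8 or 12 or KOPTK1 library 1, 5 or 6. Its adjusted p ran from 0.0050 to 0.60. Where TYK2 missed, its difference was -0.029 with no filter on low values and -0.11 without HPB-ALL libraries 10, 11 and 12. The count of lower genes was 2 without KOPTK1 libraries 4, 5 and 6, without HPB-ALL libraries 7, 8 and 9, and without HPB-ALL libraries 10, 11 and 12.

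Of 8 interferon-stimulated genes, 6 were lower in HPB-ALL (34.1% of all genes), 1 was higher and 1 did not pass, with a median of -0.93. The count lower was 5 without KOPTK1 libraries 4, 5 and 6, without HPB-ALL libraries 7, 8 and 9, and without HPB-ALL libraries 10, 11 and 12. The summed level of the 8 genes overlapped between the lines, from 93.0 to 97.1 RPKM in HPB-ALL and from 92.5 to 104.0 RPKM in KOPTK1. MX1, an antiviral GTPase, ran from 0.041 to 0.35 RPKM in HPB-ALL and from 5.40 to 13.6 RPKM in KOPTK1 (adjusted p = 1.4e-07). IFI44L ran from 0.024 to 0.069 RPKM in HPB-ALL and from 1.51 to 4.90 RPKM in KOPTK1 (adjusted p = 1.3e-07). ISG15 was the gene higher in HPB-ALL, by 0.81 (adjusted p = 0.00029), by 1.27 without KOPTK1 libraries 1, 2 and 3 and by 0.50 without libraries 4, 5 and 6. IFI6, at -0.14 (adjusted p = 0.017), missed the threshold in 7 of 25 alternatives, among them those without HPB-ALL library 12 or KOPTK1 library 6. Its adjusted p ran from 0.0047 to 0.33. Where IFI6 missed, its difference was -0.064 with no filter on low values and -0.077 without KOPTK1 libraries 4, 5 and 6. It was -0.14 without HPB-ALL libraries 7, 8 and 9, where IFI6 also missed. PRC2, which silences class I genes in some tumors, had 1 of 3 genes higher and 2 lower in HPB-ALL, EZH2 by -0.25 (adjusted p = 4.7e-05) and SUZ12 by -0.47 (adjusted p = 5.4e-06). The higher gene was EED (adjusted p = 0.041, overlapping ranges), and the count of higher PRC2 genes was 0 without HPB-ALL libraries 10, 11 and 12.

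The genes most like the class I genes were sought with a score per library, the mean z-score of the 8 members. Over 12 libraries the 5 genes with the highest Pearson r were MAP3K14, LINC02968, SLC2A6, BLTP2 and ZNF212, with r from 0.991 to 0.996. After the mean of each line was subtracted they were REC8, MAP3K14, LINC02968, ENSG00000235381 and STAT5B, with r from 0.968 to 0.984. The libraries share line, depth and the separation of KOPTK1 libraries 1 to 3 from 4 to 6, so these values describe the libraries only. Among the members themselves, with line means subtracted, r was 0.94 between HLA-E and TAPBP, 0.86 between HLA-E and TAP2, and -0.33 between HLA-E and HLA-C. These r values include the separation of the KOPTK1 libraries and were not computed without it.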

How the data were processed

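RNA-seq was measured in 12 libraries of 2 lines. The authors deposited estimated counts per gene, partly fractional, in 1 table per line; the submitters' notes name hg38, Trimmomatic 0.36, STAR 2.5.4b, Picard 2.18.7, featureCounts 1.6.2 and edgeR 3.22.3. The deposited log2 CPM, averaged by the authors over a line, served only to choose among entries of 1 symbol. The authors' 4 comparison columns (fold change, F, p and FDR) were not used. Symbols matched 95.9% of identifiers.

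Counts were rounded and tested with edgeR 4.0.16 (TMM over both tables, quasi-likelihood, two-sided) across genes whose mean RPKM reached 1 in either line, in R 4.3.3; limma 3.58.1 and DESeq2 1.42.0 were alternatives. SE was derived from the log2 difference and F. RPKM used library totals. The code was tested on simulated data. No 2 libraries of 1 line agreed within sampling noise. Named genes were all members, SHQ1, lineage markers, and per list the 2 highest levels and the 2 largest differences. PSMB8, PSMB9, ERAP1, ERAP2, EED, the limits for genes marking a line and the 5 RPKM minimum within lines were chosen after values were seen. Members and lists were chosen with earlier results of these data known.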

Additional observations from a re-analysis of the deposited data

How the results depend on the processing

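Direction was kept for all 8 class I genes in each alternative run (25, of which 12 leave out 1 library and 4 leave out 3 libraries, the latter chosen after seeing the data). HLA-B, HLA-E, B2M, TAP1, TAP2 and TAPBP also passed the threshold in all 25 alternatives, HLA-C in 23 and NLRC5 in 5 of the 24 that tested it; its level was under the minimum mean RPKM of 10. The number of members called was 6 to 8 over all alternatives, and 7 or 8 with 1 library left out. No scaling moved the median of all genes by more than 0.1 on the log2 scale.

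The number of genes called was 15873, and 7196 with a minimum mean RPKM of 10, where fewer genes were tested (9293). The number at least 2-fold apart was 3157. It was 6755 with no filter on low values, 560 with a minimum mean RPKM of 10, 1614 with limma and a pseudocount of 1 (which changes the test as well), and, in alternatives chosen after seeing the data, 4846 without KOPTK1 libraries 1, 2 and 3 and 1677 without libraries 4, 5 and 6. HLA-E, at -1.05, came to lie just under 2-fold, leaving 0 members, with no filter on low values (-0.98) and with limma and a pseudocount of 1 (-0.9999). It lay further under, at -0.83, without KOPTK1 libraries 4, 5 and 6, which also left 0 members; the cause was not tested. Without libraries 7, 8 and 9 SHQ1 missed the threshold (log2 difference 0.13, adjusted p = 0.055).

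No paired analysis was possible because the columns of the tables carry no replicate number. With no filter on low values the log2 difference was -0.12 for HLA-B, B2M, TAP1 and PSME1, 0.19 for HLA-C and -0.030 for NLRC5. SHQ1 stood at 0.73 without HPB-ALL libraries 10, 11 and 12. Levels without rescaling were not run, since the values are counts of unequal depth. The part of depth in the values of low genes, such as MX1 and IFI44L in HPB-ALL, was not tested.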
